A study of Bos taurus with 12 samples.

Results

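The 61 genes described here make the enzymes that load amino acids onto tRNA and the factors that start translation, as measured in the endometrium of heifers in the cycle before an embryo was transferred to them. They were chosen by symbol: aminoacyl-tRNA synthetases, the synthetase scaffold proteins AIMP1 and AIMP2, and genes whose symbols begin with EIF2S, EIF2B, EIF3, EIF4 or EIF5. All 61 passed the filter on low values, a log2 value above 4 on at least 3 of the 12 arrays, and they stand among 6781 genes that passed it. The set holds 16 cytosolic synthetases, 13 mitochondrial synthetases, 2 scaffold proteins and 30 initiation genes, of which 12 encode subunits of eIF3. EIF5A, EIF5B, EIF2B5 and EIF4EBP2 were not analysed here.

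Total RNA from endometrial biopsies of Simmental heifers was hybridised to Affymetrix bovine arrays, with 3 arrays in each of 4 groups. CDd14 and CDd7 are biopsies of day 14 and day 7 of the oestrous cycle from heifers that later carried the transferred embryo to the birth of a calf. NPd14 and NPd7 are biopsies of the same days from heifers that returned to heat after the transfer and were not pregnant. Each array holds RNA of a pool. How many heifers went into each, and whether the same animals were pooled on both days, is not given here, so p-values measure the spread between pools. A CDd14 sample whose title carries a pool number and a replicate number that differ was taken as pool 3, by its replicate number. The outcome was known only weeks after the biopsy, and all heifers sampled here received an embryo in the next cycle. A biopsy is whole tissue, in which fewer cells of a type and less RNA per cell cannot be told apart.

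Aminoacyl-tRNA synthetases join each amino acid to its own tRNA. The cytosol and the mitochondria use separate nuclear-encoded enzymes for most amino acids, marked by 1 and 2 at the end of the symbol, while GARS1 and KARS1 serve both compartments. Initiation begins when eIF2 brings the initiator tRNA to the small ribosomal subunit and eIF4E binds the cap of the mRNA. eIF4G then bridges the cap to eIF3 on the ribosome, eIF4A unwinds the leader, and eIF2B recharges eIF2 with GTP. When eIF2 is phosphorylated by a stress kinase, the transcription factor ATF4 is made and switches on genes of amino acid supply, many cytosolic synthetases among them. In ruminants the endometrium secretes proteins and nutrients on which the conceptus lives before it attaches, a secretion that progesterone builds up over the luteal phase.

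Over all probe sets the array medians were 4.89 to 5.06 (log2), and arrays of a group correlated at 0.921 to 0.988 across probe sets. The tissue label was checked against markers: 13 of 14 epithelial markers and 11 of 15 stromal fibroblast markers passed the filter, while 1 of 7 endothelial markers (CLDN5) did. The mean deviation of the 11 stromal markers from their 12-array mean was -0.99 to -0.15 in CDd14, -0.56 to 1.02 in NPd14, -1.59 to -0.45 in CDd7 and 0.97 to 2.11 in NPd7 (COL1A1, COL6A3, PDGFRB and POSTN were not among the genes kept). The epithelial markers stayed between -0.17 and 0.32 on every array. The excess of the 3′ over the 5′ signal in 3 control transcripts, a measure of RNA integrity and labelling, averaged 1.97 ± 0.11 in CDd14, 2.32 ± 0.17 in NPd14, 1.65 ± 0.20 in CDd7 and 1.94 ± 0.19 in NPd7 (SD, n = 3 each).

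The spread of a member over the arrays differed widely between members. EIF4A2, an RNA helicase of the cap complex, spanned 0.24 log2 units over the 12 arrays. RARS1 (arginyl-tRNA synthetase) spanned 0.27 on its brighter probe set, EIF3A (the largest eIF3 subunit) 0.34 and EPRS1 (the fused glutamyl- and prolyl-tRNA synthetase) 0.38. At the other end LARS2, the mitochondrial leucyl-tRNA synthetase, spanned 3.36 units, EIF4E3, an atypical cap-binding protein, 2.47, FARS2, the mitochondrial phenylalanyl-tRNA synthetase, 2.35 and GARS1, the glycyl-tRNA synthetase, 2.19. Within a group the median SD between pools was 0.24 for the cytosolic synthetases, 0.19 for the mitochondrial synthetases, 0.20 for the initiation genes and 0.24 for all 6781 genes. LARS2, FARS2, CARS1 and AARS2 lie close to the filter, where the authors' background correction compresses differences: LARS2 was above 4 on 9 arrays, FARS2 on 7 and CARS1 on 4, and AARS2 had 4.26 to 4.72 over all arrays.

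**Figure D1:**
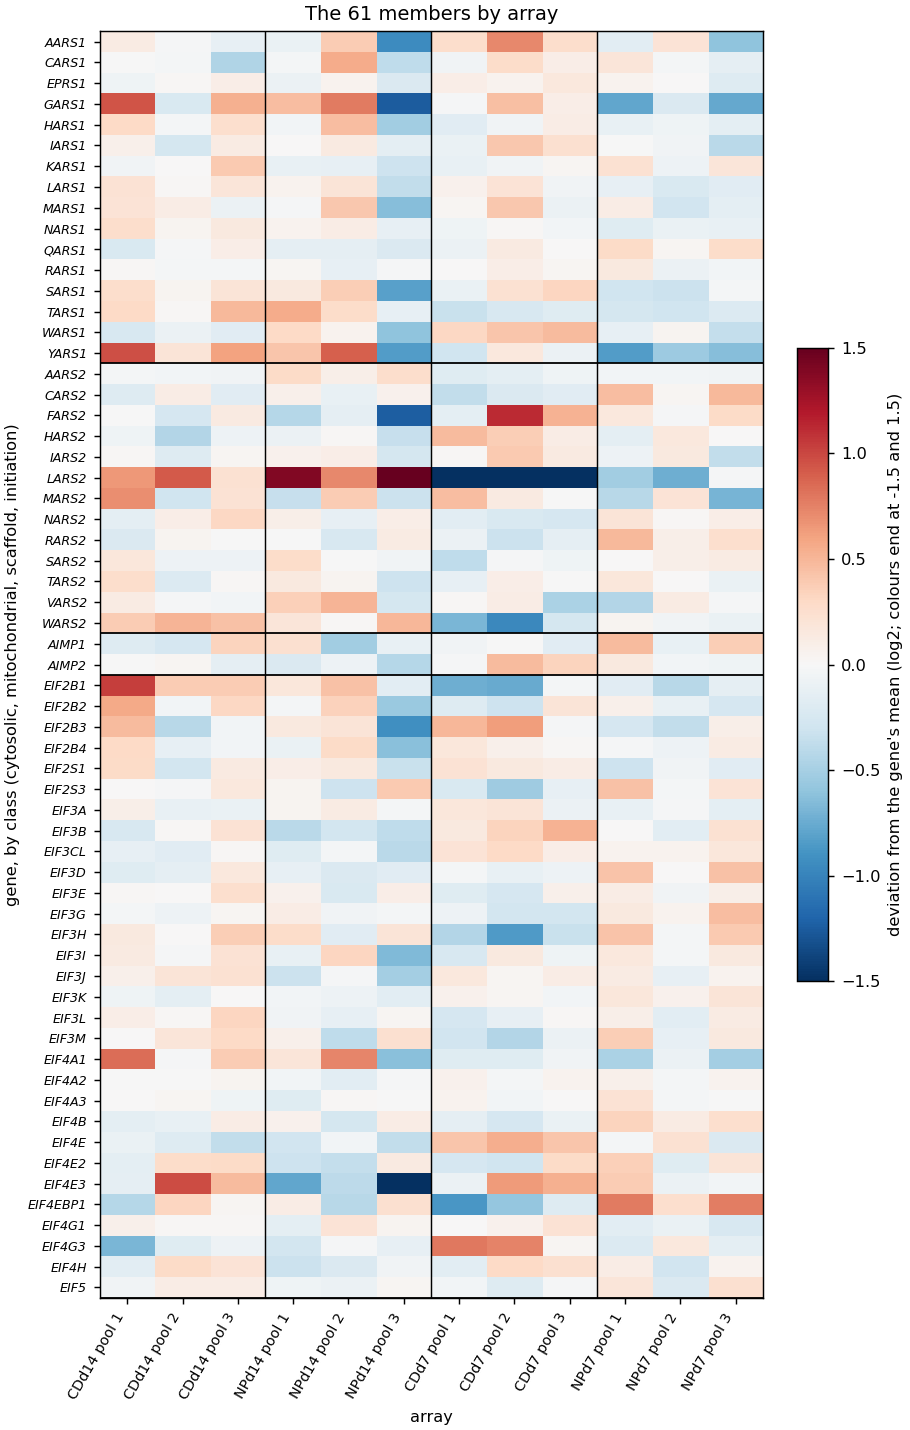
Deviation of each of the 61 genes (rows, grouped as cytosolic synthetases, mitochondrial synthetases, scaffold proteins and initiation genes) from its own mean over the 12 arrays (columns, by group and pool), on the log2 scale, with colours ending at -1.5 and 1.5. LARS2 is lowest in the 3 CDd7 pools, and NPd14 pool 3 is the lowest NPd14 pool for 15 of the 16 cytosolic synthetases.

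Between day 7 and day 14 in heifers that delivered a calf, 4 members rose and 3 fell with an adjusted p under 0.05 in limma's moderated test over all 13449 probe sets. That is 11.5% of the 61, where 24.1% of all genes passed (9.87% rose and 14.2% fell). The 7 genes were the mitochondrial synthetases LARS2, WARS2 and HARS2 and the initiation genes EIF2B1, EIF3H, EIF4E and EIF4G3. Pools did not overlap for 12 members that were higher in CDd14 (19.7%, beside 22.1% of all genes) and 6 that were lower (9.84%, beside 22.8%). None of the 16 cytosolic synthetases passed, and 2 had an unadjusted p under 0.05, beside 2665 of all 6781 genes. The median log2 difference was -0.01 for the cytosolic synthetases, 0.12 for the mitochondrial synthetases and 0.07 for the initiation genes, beside -0.00 for all genes. The 3′ to 5′ control difference was 1.84 to 2.05 in CDd14 and 1.42 to 1.79 in CDd7. The epithelial markers averaged 0.05 to 0.32 in CDd14 and -0.11 to -0.07 in CDd7. CLDN5, whose 12-array mean of 3.70 is under the filter level of 4, deviated by -2.03 to -1.65 in CDd14 and 2.09 to 3.52 in CDd7. None of these overlapped, and their part in the changes between days was not tested.

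LARS2 (gene identifier 504609) had log2 values of 6.09, 6.35 and 5.66 in the CDd14 pools, against 3.93, 3.93 and 3.92 in the CDd7 pools. The 3 CDd7 values lie under the filter and near the array's background, so LARS2 passed the filter only through the other groups and no exact fold is given. On the deposited values it rose, with a fitted difference of 2.10 ± 0.29 that depends on where the floor was set (SE; limma adjusted p = 0.00264). WARS2 (identifier 532903), the mitochondrial tryptophanyl-tRNA synthetase, was measured far above the floor, at 11.71, 11.84 and 11.77 in CDd14 and 10.64, 10.36 and 11.06 in CDd7. The groups did not overlap, and WARS2 rose by 1.08 ± 0.18 (SE; a fold of 2.12, limma adjusted p = 0.00452).

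HARS2 (identifier 615182), which charges mitochondrial histidine tRNA, went the other way, with 9.74, 9.36 and 9.72 in CDd14 and 10.27, 10.17 and 9.90 in CDd7. It fell by 0.51 ± 0.16 on the log2 scale (SE; limma adjusted p = 0.0426) with no overlap, a call that was lost in 11 of 19 alternative settings (adjusted p up to 0.134). The remaining 10 mitochondrial synthetases did not pass, among them IARS2, MARS2, RARS2, SARS2, TARS2 and VARS2, whose CDd14 and CDd7 pools overlapped. CARS2, for cysteine, has 2 probe sets: the brighter averaged 9.07 ± 0.17 in CDd14 and 8.90 ± 0.10 in CDd7 (SD, n = 3 each) and did not pass, and the dimmer was higher in CDd14 by 0.73 ± 0.24 (SE; limma adjusted p = 0.0494). Calls among the mitochondrial members thus went in both directions over the same days, the downward one resting on HARS2 alone.

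The mRNA of the cap-binding protein eIF4E was lower at day 14 in the heifers that delivered. EIF4E (identifier 281751) had 11.49, 11.40 and 11.22 in CDd14 and 12.01, 12.13 and 12.003 in CDd7. Every CDd7 pool lay above every other pool of the study, and EIF4E fell by 0.68 ± 0.14 on the log2 scale (SE; a fold of 1.60, limma adjusted p = 0.0102). In the NP groups it averaged 11.36 ± 0.17 in NPd14 and 11.59 ± 0.22 in NPd7 (SD, n = 3 each), with overlapping pools, and did not pass. The array also carries eIF4E among its control probe sets, which stood outside the fit. The 3′ control set averaged 12.78 in CDd14, 12.70 in NPd14, 13.35 in CDd7 and 12.90 in NPd7. The middle set averaged 7.68 in CDd14, 7.42 in NPd14, 9.11 in CDd7 and 7.99 in NPd7, and so was also highest in CDd7, while the 5′ set lay near the floor, with means of 2.93 to 2.97. The 3′ set exceeded the middle set by 5.10 ± 0.07 in CDd14, 5.28 ± 0.11 in NPd14, 4.25 ± 0.07 in CDd7 and 4.91 ± 0.21 in NPd7 (SD, n = 3 each), so the distance along the transcript was also smallest in CDd7, and the part of RNA integrity in the EIF4E difference was not tested.

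EIF4G3 (identifier 534618), a homologue of the scaffold eIF4G1, had 8.48, 8.99 and 9.09 in CDd14 and 9.96, 9.91 and 9.19 in CDd7. It fell by 0.84 ± 0.23 on the log2 scale (SE; limma adjusted p = 0.0268), and CDd7 pool 3 stood nearest to the CDd14 pools. The call was lost without CDd7 pool 1 (adjusted p = 0.084), CDd7 pool 2 (0.102) or CDd14 pool 1 (0.0827). Its dimmer probe set had a difference of -1.41 ± 0.38 (SE; limma adjusted p = 0.0259). EIF4G1 itself stood at 10.39 ± 0.03 in CDd14 and 10.45 ± 0.11 in CDd7 (SD, n = 3 each), with overlapping pools.

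EIF2B1 (identifier 516670), the alpha subunit of the exchange factor eIF2B and part of its sensor for phosphorylated eIF2, had 8.34, 7.68 and 7.69 in CDd14 and 6.57, 6.54 and 7.28 in CDd7. Every CDd14 pool was above every CDd7 pool, and EIF2B1 rose by 1.11 ± 0.25 (SE; a fold of 2.15, limma adjusted p = 0.0138), a call lost without CDd7 pool 2 (adjusted p = 0.0596). The 3 other measured eIF2B subunits did not pass and their groups overlapped: EIF2B2 averaged 11.38 ± 0.30 in CDd14 and 10.999 ± 0.27 in CDd7, EIF2B3 8.35 ± 0.45 in CDd14 and 8.71 ± 0.34 in CDd7, and EIF2B4 10.40 ± 0.22 in CDd14 and 10.44 ± 0.08 in CDd7 (SD, n = 3 each). EIF3H (identifier 506873), an outer subunit of eIF3, had 13.20, 13.05 and 13.42 in CDd14 and 12.61, 12.20 and 12.72 in CDd7. It rose by 0.71 ± 0.19 (SE; limma adjusted p = 0.0249) with no overlap, and none of the other 11 eIF3 subunits passed. Its call was lost without CDd7 pool 2 (adjusted p = 0.0975), CDd14 pool 1 (0.056) or CDd14 pool 3 (0.0876).

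**Figure D2:**
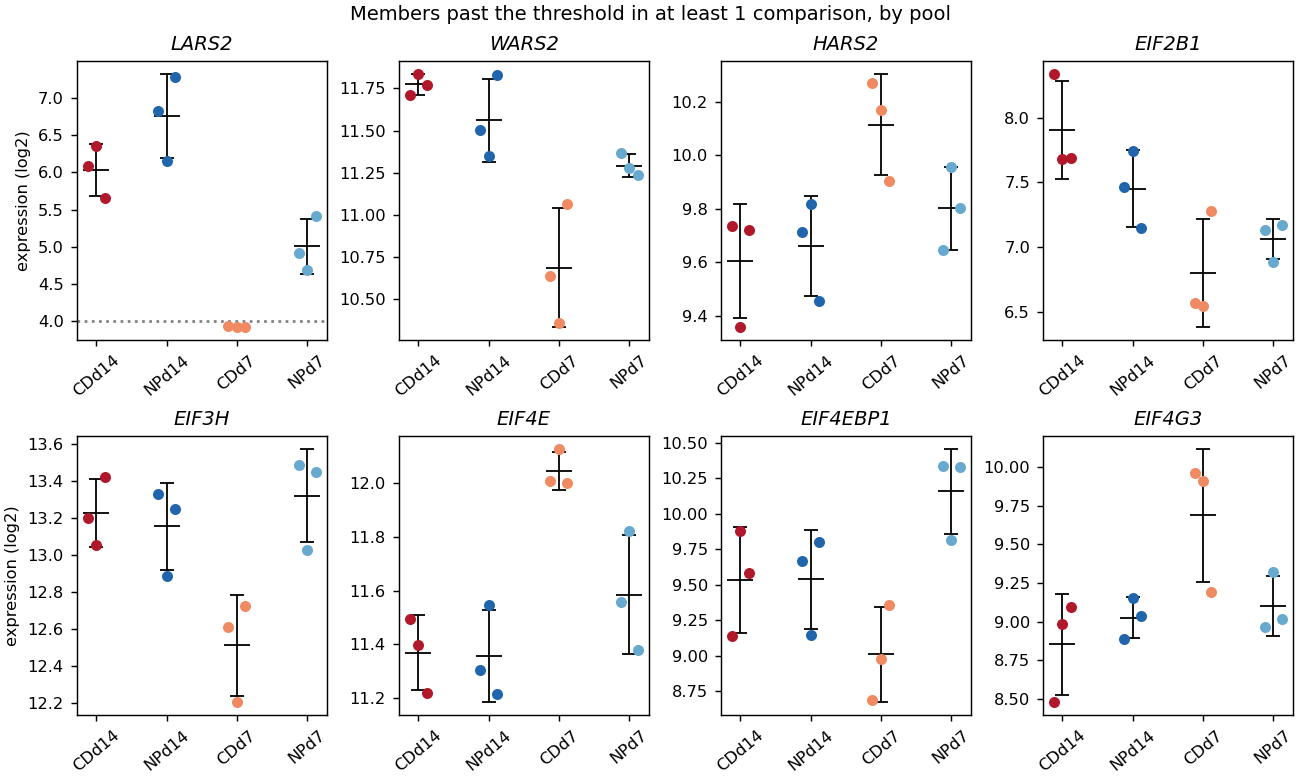
Log2 expression of the 8 genes that passed the threshold in at least 1 comparison, by group, with each pool as a point and the mean with its SD as bars (n = 3 pools); the dotted line in the LARS2 panel is the filter at 4, and each panel has its own axis. The 3 CDd7 pools are below every other pool for LARS2, WARS2 and EIF3H and above every other pool for EIF4E.

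Among the cytosolic synthetases of the heifers that delivered, TARS1, YARS1 and NARS1 had every CDd14 pool above every CDd7 pool, and AARS1 and WARS1 the reverse. This is 18.8% and 12.5% of the class, where 22.1% and 22.8% of all genes were. TARS1, the threonyl-tRNA synthetase, had 11.26, 10.99 and 11.45 in CDd14 and 10.63, 10.73 and 10.78 in CDd7, a difference of 0.52 ± 0.17 that missed the threshold (SE; limma adjusted p = 0.0547). YARS1 had 11.59, 10.82 and 11.22 in CDd14 and 10.33, 10.79 and 10.53 in CDd7, a difference of 0.67 ± 0.38 (SE; limma adjusted p = 0.217). WARS1, the cytosolic tryptophanyl-tRNA synthetase which interferon gamma induces in human cells, had 11.43, 11.58 and 11.50 in CDd14 and 11.98, 12.09 and 12.14 in CDd7. The difference of -0.57 ± 0.21 was not past the threshold on this probe set (SE; limma adjusted p = 0.0698). The other 2 WARS1 probe sets passed it, with differences of -1.02 and -0.51 (limma adjusted p = 0.04 and 0.0462). RARS1 likewise differs by probe set: its brighter set did not pass, with 11.93 ± 0.03 in CDd14 and 11.98 ± 0.05 in CDd7 (SD, n = 3 each), and its dimmer set had a difference of -0.66 ± 0.19 (SE; limma adjusted p = 0.0304).

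In heifers that did not become pregnant, 1 member passed between the days, LARS2, and it rose. Of all genes, 0.133% passed in this comparison (0.059% rose and 0.0737% fell), so few genes of any kind were called. LARS2 had 6.82, 6.16 and 7.29 in the NPd14 pools, against 4.91, 4.69 and 5.42 in the NPd7 pools. The groups did not overlap, no pool was below the filter, and the difference was 1.75 ± 0.29 (SE; limma adjusted p = 0.0456). The NPd7 values lie close to the filter, where differences are compressed, so no exact fold is given here either. In this pair of groups the pool numbers deviated together, and the adjusted p was 0.0226 with the pool number as a block in the NP groups alone, a fit chosen after the data were seen, and 0.0718 with the block over all 4 groups. Without NPd14 pool 3, 2 members passed: YARS1, the tyrosyl-tRNA synthetase, joined LARS2, with a difference of 1.33 (limma adjusted p = 0.0415) in place of 0.83 ± 0.38 (SE; limma adjusted p = 0.311). The LARS2 call was lost in 17 of 20 alternative settings (adjusted p up to 0.219). TARS1, AARS2 and LARS2 were higher in every NPd14 pool, 4.92% of the members where 7.33% of all genes were.

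The initiation genes stood mostly lower at day 14 in the NP groups without any of them passing. In NPd14 against NPd7, 6 of 30 had a positive difference (20%, beside 40.8% of all genes), and the median was -0.16 beside -0.06 for all genes. All but 1 of the 12 eIF3 subunits had a negative difference, with a median of -0.22, and EIF3B, EIF3CL, EIF3D and EIF3K had every NPd14 pool below every NPd7 pool. Of the 30 initiation genes, 7 (23.3%) were lower without overlap, where 15.3% of all genes were. EIF3D, a subunit that binds the cap of some mRNAs in human cells, had 12.38, 12.28 and 12.33 in NPd14 and 12.93, 12.51 and 12.94 in NPd7, a difference of -0.46 ± 0.14 (SE; limma adjusted p = 0.17). EIF4E3 had 9.88, 10.27 and 9.17 in NPd14 and 11.05, 10.57 and 10.62 in NPd7, a difference of -0.97 ± 0.34 (SE; limma adjusted p = 0.217). The 3′ to 5′ control difference was 2.12 to 2.42 in NPd14 and 1.73 to 2.11 in NPd7, without overlap. The 3 measured ciliated cell markers averaged -3.41 to -0.43 in NPd14 and 0.21 to 0.77 in NPd7 (FOXJ1, DNAI1, DNAI2, RSPH1, PIFO and CAPS were not among the genes kept). The part of these in the lower initiation values was not tested.

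Other members with small p in NPd14 minus NPd7 did not pass in limma's test. TARS1 had 11.52, 11.24 and 10.84 in NPd14 and 10.70, 10.67 and 10.76 in NPd7, a difference of 0.49 ± 0.17 (SE; limma adjusted p = 0.219). QARS1, the glutaminyl-tRNA synthetase, had 12.15, 12.14 and 12.07 in NPd14 and 12.56, 12.31 and 12.55 in NPd7, a difference of -0.36 ± 0.12 (SE; limma adjusted p = 0.21). These groups did not overlap. AARS2 differed by 0.25 ± 0.09, FARS2 by -0.74 ± 0.33, EIF3K by -0.24 ± 0.10 and EIF4EBP1 by -0.62 ± 0.26 (SE; limma adjusted p = 0.239, 0.305, 0.267 and 0.279), with AARS2 and FARS2 close to the filter.

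At day 7 of the cycle before transfer, 2 members differed between the outcomes and both were lower in the heifers that later delivered. This is 3.28% of the members, close to the 3.48% of all genes that passed (1.46% rose and 2.02% fell). EIF4EBP1 (identifier 509613), which holds eIF4E away from eIF4G until mTORC1 phosphorylates it, had 8.69, 8.98 and 9.36 in CDd7 and 10.33, 9.82 and 10.33 in NPd7. It fell by 1.15 ± 0.26 on the log2 scale (SE; a fold of 2.22, limma adjusted p = 0.0449). EIF3H had 12.61, 12.20 and 12.72 in CDd7, all below the NPd7 pools at 13.48, 13.03 and 13.45. It fell by 0.81 ± 0.19 on the log2 scale (SE; a fold of 1.75, limma adjusted p = 0.0487). Both calls are near the threshold: that of EIF4EBP1 was lost in 10 of 19 alternative settings (adjusted p up to 0.184) and that of EIF3H in 11 of 19 (up to 0.196).

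EIF4E, the partner that EIF4EBP1 restrains, stood the other way round at day 7, with 12.01, 12.13 and 12.003 in CDd7 and 11.56, 11.82 and 11.38 in NPd7. The pools did not overlap, and the difference of 0.46 ± 0.14 did not pass (SE; limma adjusted p = 0.0773). EIF4G1, which competes with EIF4EBP1 for the same site on eIF4E, had 10.37, 10.42 and 10.57 in CDd7 and 10.20, 10.25 and 10.12 in NPd7, a difference of 0.26 ± 0.11 (SE; limma adjusted p = 0.161). EIF2S1, the alpha subunit of eIF2 that the stress kinases phosphorylate, averaged 10.66 ± 0.06 in CDd7 and 10.32 ± 0.13 in NPd7 without overlap, and EIF2S3, the gamma subunit, 13.68 ± 0.21 in CDd7 and 14.18 ± 0.24 in NPd7 with the opposite order (SD, n = 3 each). Neither passed. The eIF3 subunits EIF3D and EIF3G were lower in every CDd7 pool than in every NPd7 pool, EIF3G by a difference of -0.43 ± 0.13 (SE; limma adjusted p = 0.0711).

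Cytosolic and mitochondrial synthetases had median differences of opposite sign at day 7, though no synthetase passed the threshold. An unadjusted p under 0.05 was found for 1 of 16 cytosolic and 5 of 13 mitochondrial synthetases, beside 2062 of all 6781 genes. Of the cytosolic enzymes, 14 of 16 (87.5%) had a positive difference, CDd7 minus NPd7, beside 48.7% of all genes, and the median was 0.18 beside -0.01. AARS1, GARS1, LARS1, NARS1, WARS1 and YARS1 were higher in every CDd7 pool, 37.5% of the class where 16.7% of all genes were, and 0 were lower without overlap. GARS1 had 11.66, 12.12 and 11.77 in CDd7 and 10.89, 11.45 and 10.91 in NPd7, a difference of 0.77 ± 0.48 (SE; limma adjusted p = 0.302). WARS1 had 11.98, 12.09 and 12.14 in CDd7 and 11.54, 11.71 and 11.31 in NPd7, a difference of 0.55 ± 0.21 (SE; limma adjusted p = 0.116). The dimmer WARS1 probe sets had differences of 1.23 and 0.33 (limma adjusted p = 0.0547 and 0.201). For RARS1 the brighter set gave 0.04 and the dimmer 0.70 (limma adjusted p = 0.833 and 0.059). AARS1 differed by 0.60 ± 0.31 and IARS1, the isoleucyl-tRNA synthetase, by 0.34 ± 0.17 (SE; limma adjusted p = 0.223 and 0.214), and the pools of IARS1 overlapped.

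Of the mitochondrial enzymes, 4 of 13 (30.8%) had a positive difference and the median was -0.09, which is the value of AARS2. AARS2, CARS2, LARS2, NARS2, RARS2, SARS2 and WARS2 were lower in every CDd7 pool, 53.8% of the class where 18.6% of all genes were. Of these, LARS2 lay under the filter in all CDd7 pools and AARS2 lay close to it on all arrays. LARS2 had 3.93, 3.93 and 3.92 in CDd7 and 4.91, 4.69 and 5.42 in NPd7. With all CDd7 values under the filter, its fitted difference of -1.08 ± 0.29 is measured against the floor (SE; limma adjusted p = 0.0596). WARS2 had 10.64, 10.36 and 11.06 in CDd7 and 11.37, 11.28 and 11.23 in NPd7, a difference of -0.60 ± 0.18 (SE; limma adjusted p = 0.0723). For CARS2 the brighter probe set gave -0.58 ± 0.15 (SE; limma adjusted p = 0.056) and the dimmer set -1.04 ± 0.24, which passed (SE; limma adjusted p = 0.0451).

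**Figure D3:**
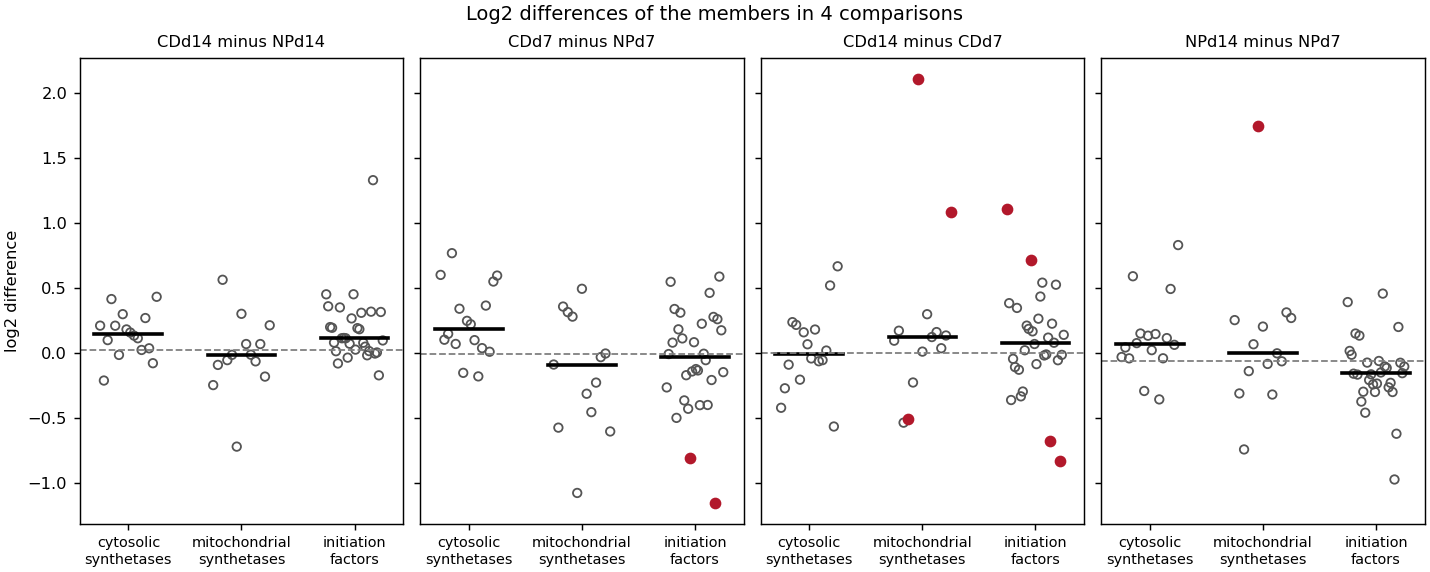
Log2 difference of each cytosolic synthetase, mitochondrial synthetase and initiation gene in 4 comparisons (points); filled red points passed an adjusted p of 0.05, thick bars are class medians and the dashed line is the median of all 6781 genes. In CDd7 minus NPd7 the cytosolic median is 0.18 and the mitochondrial median -0.09, and the only filled points are EIF4EBP1 and EIF3H.

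The 11 stromal markers did not overlap between the same day 7 groups, at -1.59 to -0.45 in CDd7 and 0.97 to 2.11 in NPd7. Other cell-type scores differed in mean between these groups, but those below that rest on several genes overlapped. The 8 measured of 14 T and natural killer cell markers averaged -1.42 to -0.10 in CDd7 and -0.12 to 1.14 in NPd7 (GZMA, GZMB, PRF1, NKG7, CD5 and CD7 were not among the genes kept). The 8 measured of 11 macrophage and neutrophil markers averaged -1.49 to -0.25 in CDd7 and -0.48 to 0.70 in NPd7. The 15 measured of 20 cell cycle genes averaged -0.47 to 1.77 in CDd7 and -0.85 to -0.16 in NPd7. Scores that rest on 1 measured gene did not overlap. CLDN5 (endothelium) stood at 2.09 to 3.52 in CDd7 and -0.48 to 1.06 in NPd7. JCHAIN (plasma cells) stood at -4.04 to -0.15 in CDd7 and 0.14 to 2.30 in NPd7, and GYPC (red cells) at -0.82 to -0.03 in CDd7 and 0.23 to 0.93 in NPd7. The part of these scores, and of the 3′ to 5′ control difference, in the day 7 values was not tested.

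At day 14 no member differed between the outcomes in limma's test, and 0.0147% of all genes passed. An unadjusted p under 0.05 was found for 5 of 61 members, beside 430 of all 6781 genes. Of the initiation genes 25 of 30 (83.3%) were on average higher in CDd14, beside 55.4% of all genes, with a median of 0.11 beside 0.03. So were 13 of 16 cytosolic synthetases (81.2%, median 0.14) and 5 of 13 mitochondrial synthetases (38.5%, median -0.02). The synthetase medians thus had opposite signs at day 14 as well as at day 7. NPd14 pool 3 was the lowest NPd14 pool for 15 of the 16 cytosolic enzymes. EIF3B, EIF3J, EIF4A2, EIF4E3 and KARS1 were higher in every CDd14 pool and AARS2 lower, which is 8.20% and 1.64% of the members where 4.85% and 5.72% of all genes were. EIF4E3 had 10.53, 11.64 and 11.14 in CDd14 and 9.88, 10.27 and 9.17 in NPd14, a difference of 1.33 ± 0.34 (SE; limma adjusted p = 0.398). EIF3J, a loosely bound eIF3 subunit, had 10.81, 10.93 and 10.97 in CDd14 and 10.41, 10.72 and 10.23 in NPd14, a difference of 0.45 ± 0.14 (SE; limma adjusted p = 0.485). EIF3B, an RNA-binding core subunit of eIF3, differed by 0.35 ± 0.16 (SE; limma adjusted p = 0.675). The cytosolic synthetases with the smallest p were KARS1 (lysyl), at 0.30 ± 0.14, NARS1 (asparaginyl), at 0.13 ± 0.10, and LARS1 (leucyl), at 0.18 ± 0.15 (SE; limma adjusted p = 0.686, 0.857 and 0.865). Of the mitochondrial enzymes close to the filter, AARS2 differed by -0.25 ± 0.09 and FARS2 by 0.56 ± 0.33 (SE; limma adjusted p = 0.597 and 0.777). LARS2 overlapped between the outcomes at this day and had a difference of -0.72 ± 0.29 (SE; limma adjusted p = 0.61). EIF4EBP1 averaged 9.53 ± 0.37 in CDd14 and 9.54 ± 0.35 in NPd14, and EIF3H 13.22 ± 0.18 in CDd14 and 13.15 ± 0.23 in NPd14 (SD, n = 3 each). The 3′ to 5′ control difference was 1.84 to 2.05 in CDd14 and 2.12 to 2.42 in NPd14, and the 8 macrophage and neutrophil markers averaged -0.27 to 0.45 in CDd14 and 0.49 to 1.35 in NPd14. Neither overlapped between the outcomes, and their part in the day 14 values was not tested.

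The change between days was compared between the outcomes in the same model, as the day effect in CD minus the day effect in NP. No member and no gene passed in limma's test, and 7 members and 980 of the 6781 genes had an unadjusted p under 0.05. The members with the smallest p were EIF3H, at 0.88 ± 0.27, WARS2, at 0.82 ± 0.25, and EIF4EBP1, at 1.15 ± 0.37 (SE; limma adjusted p = 0.273, 0.275 and 0.284). Among the others, EIF3D, CARS2 and KARS1 stood at 0.48 ± 0.20, 0.48 ± 0.21 and 0.45 ± 0.20 (SE; limma adjusted p = 0.33, 0.342 and 0.35). WARS1 stood at -0.63 ± 0.29, RARS2 at 0.44 ± 0.21 and QARS1 at 0.29 ± 0.17 (SE; limma adjusted p = 0.358, 0.359 and 0.441). So the genes called between days in CD and not in NP are not shown to differ between the outcomes in their day effect. For LARS2 the fitted day effects were 2.10 ± 0.29 in CD, against a CDd7 level at the floor, and 1.75 ± 0.29 in NP (SE). For the eIF3 subunits the median of this difference was 0.35 and 11 of 12 were positive, beside a median of 0.04 and 54% positive for all genes. These comparisons share arrays with those above and are no separate evidence.

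The cytosolic synthetases varied most between the NPd14 pools. Their mean deviation from the 12-array mean was 0.19, -0.02 and 0.14 in the CDd14 pools, 0.09, 0.27 and -0.47 in the NPd14 pools, -0.03, 0.20 and 0.09 in the CDd7 pools and -0.12, -0.13 and -0.22 in the NPd7 pools. NPd14 pool 3 was thus the lowest array of the study, and within its group it was lowest for 15 of the 16 enzymes, where it was lowest for 44.7% of all genes. GARS1 had 12.14, 12.45 and 10.42 in NPd14, YARS1 11.04, 11.52 and 9.79, and AARS1, the alanyl-tRNA synthetase, 11.01, 11.50 and 10.17. The exception was RARS1, at 11.97, 11.82 and 11.92. The low values of that pool are not particular to the cytosolic synthetases. It was also the lowest of the 12 arrays for the initiation genes (-0.20), the eIF3 subunits among them (-0.15), the measured elongation and termination factors (-0.28) and the mitochondrial translation factors (-0.31). The 3 measured of 9 ciliated cell markers were lowest there as well (-3.41), and JCHAIN, the 1 measured plasma cell marker, was highest (4.33). The part of these differences in the synthetase values was not tested. The mitochondrial synthetases had mean deviations of 0.16, 0.10 and 0.01 in the NPd14 pools, so pool 3 was again the lowest of its group. It was the lowest NPd14 pool for 6 of these 13 enzymes, while all CDd7 and NPd7 pools had a lower class mean. LARS2, whose CDd7 values lie near the floor, had its highest value of the 12 arrays in NPd14 pool 3 (7.29) and raises this mean.

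The eIF2 kinases, the eIF2 phosphatase and the targets of ATF4, of which 18 of 27 were measured, were highest and lowest on the same arrays as the cytosolic synthetases. Their mean deviation was 0.25, -0.13 and -0.08 in CDd14, 0.15, 0.62 and -0.95 in NPd14, 0.34, 0.48 and 0.13 in CDd7 and -0.35, -0.14 and -0.31 in NPd7. NPd14 pool 2 was the highest and NPd14 pool 3 the lowest array for both. Without NPd14 pool 3, between days in CD, TARS1 (0.52, limma adjusted p = 0.0236), YARS1 (0.67, adjusted p = 0.0494) and WARS1 (-0.57, adjusted p = 0.0136) passed. At day 7 WARS1 passed as well (0.55, limma adjusted p = 0.0476). GARS1 between the outcomes at day 14 was 0.41 ± 0.48 with all pools (SE; limma adjusted p = 0.915), and its sign turned without that pool, to -0.21 (limma adjusted p = 0.935).

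**Figure D4:**
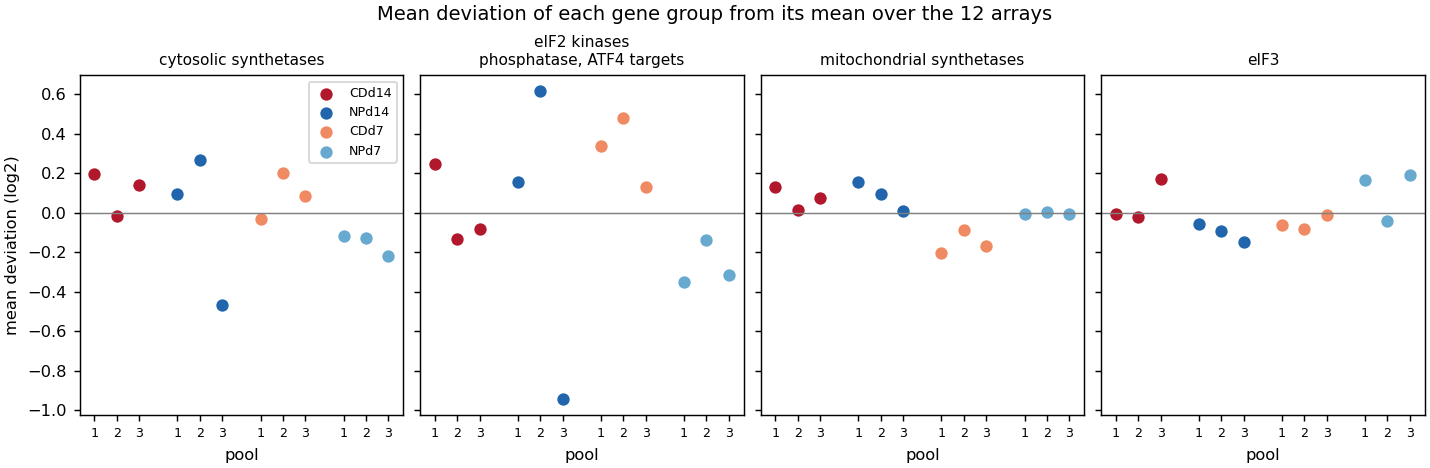
Mean deviation (log2) of the 16 cytosolic synthetases, the 18 measured eIF2 kinases, phosphatase and ATF4 targets, the 13 mitochondrial synthetases and the 12 eIF3 subunits from their means over the 12 arrays, for each pool. NPd14 pool 3 is lowest for the cytosolic synthetases (-0.47) and for the ATF4-related genes (-0.95), and NPd14 pool 2 is highest for both (0.27 and 0.62).

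Genes around these members were counted by lists of related function, and calls came only between days in CD, where 24.1% of all genes passed. Of the eIF2 kinases, phosphatase and ATF4 targets, 1 of 18 rose, 7 fell and 10 did not pass. PHGDH, the first enzyme of serine synthesis, fell by 4.07 ± 0.73 on the log2 scale (SE; limma adjusted p = 0.0061), NUPR1, a stress-induced regulator of transcription, by 3.77 ± 0.75 (adjusted p = 0.00841) and SLC3A2, the heavy chain of amino acid exchangers, by 0.68 ± 0.12 (adjusted p = 0.0059). ATF3, a stress-induced transcription factor of the ATF family, rose by 2.18 ± 0.48 (SE; limma adjusted p = 0.0119). At day 7 the same list had 12 of 18 members positive in CDd7 minus NPd7 with a median of 0.55 beside -0.01 for all genes. In limma's test 0 passed, and 5 had an unadjusted p under 0.05, beside 2062 of all 6781 genes.

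Of the mTORC1 pathway, the kinase complex that phosphorylates EIF4EBP1, 15 of 20 genes were measured. Between days in CD 0 rose and 4 fell, 26.7% of the list, near the 24.1% of all genes that passed. These were PDCD4, an inhibitor of eIF4A (-1.44 ± 0.25, SE; limma adjusted p = 0.00552), AKT1S1, an inhibitor within the complex (-0.81 ± 0.17, adjusted p = 0.0108), MLST8, a core subunit (-1.49 ± 0.33, adjusted p = 0.0129), and RRAGA, a GTPase that signals amino acids to it (-0.39 ± 0.10, adjusted p = 0.0202). The 4 thus include inhibitors as well as activating parts. Of the mitochondrial translation factors, 11 of 15 were measured and 27.3% of these passed, again near the share of all genes. MTRF1, a release factor, rose by 0.84 ± 0.20 (SE; limma adjusted p = 0.0152). GATC, a subunit of the enzyme that makes mitochondrial glutaminyl-tRNA, and MTIF2, the mitochondrial initiation factor, fell by 1.28 ± 0.29 and 0.58 ± 0.15 (SE; limma adjusted p = 0.0136 and 0.0224). EEF1E1, a further scaffold protein of the synthetase complex, fell by 1.38 ± 0.32 (SE; limma adjusted p = 0.015) as the only one of 10 measured elongation and termination factors to pass. EIF1AX, which helps scan for the start codon, fell by 0.46 ± 0.12 (SE; limma adjusted p = 0.0242) as the only one of 13 other initiation factors.

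The scaffold proteins AIMP1 and AIMP2 passed in no comparison. AIMP1 had 10.56, 10.50 and 11.09 in CDd14, 10.99, 10.23 and 10.64 in NPd14, 10.71, 10.75 and 10.59 in CDd7 and 11.23, 10.64 and 11.13 in NPd7, with overlap between all groups compared. AIMP2 averaged 9.19 ± 0.09 in CDd14, 8.99 ± 0.18 in NPd14, 9.49 ± 0.25 in CDd7 and 9.24 ± 0.12 in NPd7 (SD, n = 3 each), and its NPd14 pools lay below its NPd7 pools. EPRS1, the largest enzyme of that complex, kept within 11.89 to 12.27 on all arrays. EIF4A1, the main helicase of the cap complex, averaged 12.32 ± 0.43 in CDd14, 12.01 ± 0.69 in NPd14, 11.78 ± 0.07 in CDd7 and 11.56 ± 0.23 in NPd7 (SD, n = 3 each), higher in every CDd14 pool than in every CDd7 pool but not past the threshold. EIF5, which triggers GTP hydrolysis by eIF2 at the start codon, moved by 0.45 over the 12 arrays.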

How the data were processed

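The values are on the log2 scale as the authors deposited them. Per the submitters' processing notes the authors used GCRMA (background correction, normalization and summary per probe set) and limma, with versions not given here. Of 24128 probe sets, 112 controls were left out and 13449 of 24016 passed the filter (log2 above 4 on at least 3 arrays). No detection calls were used. Symbols came from the platform annotation (13283 probe sets matched by gene identifier, 35 unmatched). A gene is its kept probe set with the highest mean. Of 83 member probe sets 72 were kept, and 10 genes have several. The 2 probe sets that EIF4EBP3 shares with ANKHD1 were left out. Levels of different probe sets were not compared, apart from the 3′, middle and 5′ sets of control transcripts, whose difference is used as a measure of RNA integrity.

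Limma 3.58.1 in R 4.3.3 fitted 4 group means over 12 arrays (8 residual and 2.13 prior degrees of freedom), two-sided, with Benjamini-Hochberg adjustment over the 13449 probe sets and a threshold of 0.05. The scripts were tested on simulated data. Members and lists were chosen with earlier results of these data known. Values are given for genes past the threshold, for the 3 smallest p of each class and comparison, and levels for a fixed set; GARS1 between outcomes, and fixed-set genes with an unadjusted p under 0.05, were added after values were seen.

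The pool numbers were checked by correlating deviations of same-numbered arrays from their group means. In NPd14 and NPd7 all 3 pairs exceeded 0.1 (0.161, 0.619 and 0.507), so a block in these groups alone was added as an alternative. The main fit has no block. Pool 2 of CDd7 also correlated with pool 2 of NPd7 (0.363) and of NPd14 (0.326), which are of other heifers. The correlations thus cannot show that pools share animals. Alternatives were other filters, moderation, normalization, probe set choice, arrays fitted, a pool block and leaving out each pool. The number of arrays limits the precision.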

Additional observations from a re-analysis of the deposited data

How the results depend on the processing

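WARS2 and EIF4E between days in CD kept their direction and call in all 19 alternatives, with limma adjusted p up to 0.0199 and 0.044. LARS2 did so too (up to 0.0134), but its CDd7 values lie under the filter and near the floor. The alternatives therefore cannot decide how far LARS2 rose. EIF2B1 lost its call only without CDd7 pool 2 (adjusted p = 0.0596), EIF3H without CDd7 pool 2 (0.0975), CDd14 pool 1 (0.056) or CDd14 pool 3 (0.0876), and EIF4G3 without CDd7 pool 1 (0.084), CDd7 pool 2 (0.102) or CDd14 pool 1 (0.0827), with no filter (0.0526) and with only the compared groups (0.0794). HARS2 lost it with no filter, only the compared groups or the block, and without CDd7 pool 1 or 2, NPd7 pool 1 or 3, any CDd14 pool or NPd14 pool 1 (adjusted p up to 0.134). The count in CD was 7, and 3 to 10 with a pool left out (3 without CDd7 pool 2, 4 without CDd14 pool 1, 10 without NPd14 pool 3).

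The 2 calls at day 7 are fragile: 0 members passed with no filter (16 at an unadjusted p under 0.05) or with only the compared groups (18), and 0 to 7 with a pool left out. The count was 0 without CDd7 pool 1 or 2, NPd7 pool 1 or 3, any CDd14 pool or NPd14 pool 1, 3 without NPd14 pool 2 or 3, 4 without CDd7 pool 3 and 7 without NPd7 pool 2. The adjusted p reached 0.196 for EIF3H and 0.184 for EIF4EBP1. The LARS2 call in NP was lost in 17 of 20 alternatives (adjusted p 0.0124 to 0.219): 0 members passed with no filter, a filter at 6, trended and robust moderation, only the compared groups, the block over all groups, quantile normalization or the mean of probe sets, and 0 to 2 with a pool left out. The cause was not tested. No alternative called a member at day 14 or in the difference of day effects. GARS1 at day 14 was -0.21 without NPd14 pool 3, and up to 0.80 with another pool left out.

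Over all 18 pairs of same-numbered pools, the NP pairs included, correlations were -0.258 to 0.619, with 11 above 0.1. Outside the NP pair the highest was 0.363, and no 2 groups exceeded 0.1 in all 3 pools. With the pool block, 3 members passed at day 7 (EIF4E joined, adjusted p = 0.0431) and 6 between days in CD (HARS2 was lost, 0.0544).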
